A study of Homo sapiens with 12 samples.

Results

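The genes described here are 10 inhibitors of cytokine signalling through JAK kinases and STAT transcription factors: SOCS1, SOCS2, SOCS4, SOCS5, SOCS6 and SOCS7, PIAS1 and PIAS3, and the tyrosine phosphatases PTPN2 and PTPN11. They were taken by name, as the members of these inhibitor families named for the study, out of 20045 genes with a named probe on the array. All 10 were measured, by 19 probes, of which 16 were detected on at least 3 of the 12 arrays. RNA came from 2 oesophageal cancer cell lines, OE33, derived from a Barrett's adenocarcinoma, and OE21, derived from a squamous cell carcinoma. Each line was given 2 transfections with 100 nM of a pool of 4 siRNA sequences against STAT3 or with a negative control siRNA (labelled as a scrambled vector). The cells were harvested 72 h after the first of these transfections. The 4 groups, with 3 arrays each, were OE33 with STAT3 siRNA, OE33 with control siRNA, OE21 with STAT3 siRNA and OE21 with control siRNA. The transfection reagent was DharmaFECT in OE33 but siPORT NeoFX in OE21, and its part in any line difference cannot be told apart from that of the line. Each line is 1 established line standing for its tumour type, and the 3 replicates of a group were separate experiments on that line.

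Cytokine receptors activate JAK kinases, which phosphorylate STAT proteins, and phosphorylated STATs enter the nucleus and switch on target genes. SOCS proteins bind activated receptors or JAKs and, through their SOCS box, recruit a cullin ubiquitin ligase that marks the bound partner for degradation. Several SOCS genes are themselves STAT targets, which makes them feedback inhibitors. PIAS proteins are SUMO ligases that hold STATs away from DNA, PTPN2 removes phosphate from JAKs and STATs, and PTPN11 (SHP2) binds phosphorylated receptors and adaptors and in many settings passes their signal on to RAS.

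RefSeq (GRCh38.p14) gave a promoter window for 6 of the 10 genes, in 7 windows. The windows of SOCS1 and SOCS4 are shown because both genes were called lower in OE33 under both treatments and both windows end just before the first base of the gene. Each is the 250 bases before the start, 5′ to 3′ on the gene's own strand, on the minus strand at chr16:11256205-11256454 for SOCS1 and on the plus strand at chr14:55026986-55027235 for SOCS4. Capitals mark a match to the core of the interferon-stimulated response element, GAAANNGAAA.
SOCS1: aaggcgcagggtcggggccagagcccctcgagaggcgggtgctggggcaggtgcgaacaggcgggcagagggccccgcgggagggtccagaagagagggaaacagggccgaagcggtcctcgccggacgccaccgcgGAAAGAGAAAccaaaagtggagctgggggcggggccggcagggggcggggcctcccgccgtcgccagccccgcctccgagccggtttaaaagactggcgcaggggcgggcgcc
SOCS4: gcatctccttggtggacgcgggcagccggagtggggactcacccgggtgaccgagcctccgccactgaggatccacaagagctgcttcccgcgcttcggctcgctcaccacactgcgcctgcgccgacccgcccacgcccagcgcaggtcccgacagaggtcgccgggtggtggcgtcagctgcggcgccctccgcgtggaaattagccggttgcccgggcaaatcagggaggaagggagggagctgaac
The element is the sequence bound by interferon regulatory factors such as IRF1. Searched on both strands, it was found in 1 of the 7 windows, that of SOCS1, where its first base lay 113 bases before the start, and in 3.02% of all 35116 windows of this length. The STAT dimer motif TTCNNNGAA, which reads the same on both strands, was found in 0 of the 7 windows and in 6.57% of all windows. The letters of both motifs are a description of these windows and show no binding. The GC content of the windows was 74% for SOCS1 and 70% for SOCS4, against a median of 58% over all windows.

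Values are log2 intensities after background correction and quantile normalisation, so a difference of 1 is a 2-fold change, and levels of different probes are not compared. A probe counted as detected at a detection p-value under 0.01, and 18034 to 19149 probes were detected per array (38.1% to 40.5%). A gene is called where its limma adjusted p was under 0.05, with adjustment over all genes tested. STAT3, the target of the siRNA, was lower on every OE21 siRNA array, at 6.76, 6.77 and 7.47, against 9.23, 8.90 and 9.24 on the OE21 control arrays. In OE33 the siRNA arrays read 9.10, 8.87 and 9.05 and the control arrays 9.04, 10.26 and 9.36, so these groups overlapped. These values come from the probe that stands for the gene. On a second STAT3 probe the OE33 siRNA arrays, at 7.15, 7.21 and 7.04, all lay below the control arrays, at 7.59, 7.90 and 7.54. On the third probe the OE33 groups overlapped, at 7.39 to 7.91 with siRNA and 7.53 to 8.36 in control cells. The STAT3 difference was -2.12 (SE 0.23) in OE21, with an adjusted p of 0.278, and -0.55 (SE 0.30) in OE33, with an adjusted p of 0.991. The OE21 difference was called with array weights (-2.29, adjusted p = 0.0264), with every probe on its own (-2.04, the mean of 3 probes, smallest adjusted p = 0.0382) and in one fit of all 12 arrays (-2.12, adjusted p = 0.0279), and the OE33 difference was called under none of the alternatives. One OE33 control array, replicate 2, stood apart from the other arrays of its line: the first principal component of the line (52.9% of the variance) put it at -0.90 and the other 5 arrays between 0.02 and 0.26. Without that array the STAT3 difference in OE33 was -0.19 on the probe that stands for the gene. In OE21 the first component (50.1%) put siRNA replicates 1 and 2 and control replicate 1 between 0.34 and 0.51, and siRNA replicate 3 and control replicates 2 and 3 between -0.42 and -0.37. Of the 4 squamous markers measured, KRT5, KRT14 and DSG3 were detected on 0 of 6 OE33 and 6 of 6 OE21 arrays, and KRT13 on all arrays of both lines, at a mean of 5.72 in OE33 and 10.74 in OE21. Of the 6 columnar markers, KRT8 was detected on 6 OE33 and 0 OE21 arrays, KRT18, KRT19 and EPCAM on all arrays of both lines, with the higher mean in OE33, and VIL1 and CDH17 on 0 arrays. Of the 5 leukocyte markers, PTPRC and CD3E were detected on 0 arrays of either line, CD68 and CD14 on all arrays of both, and ITGAM on 3 OE33 and 5 OE21 arrays. Of the 4 fibroblast markers, COL1A1 was detected on 1 OE33 and 3 OE21 arrays and DCN on 2 OE33 and 0 OE21 arrays. COL3A1 and PDGFRB were detected on 0 arrays. Of the 3 endothelial markers, VWF was detected on 0 OE33 and 6 OE21 arrays (mean 6.88 in OE21), and PECAM1 and CDH5 on 0 arrays.

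The largest differences among the inhibitors lay between the lines, not between siRNA and control. In control cells 5 of the 10 genes were called: SOCS2, PTPN2, SOCS1 and SOCS4 were lower in OE33 than in OE21 and SOCS7 was higher. That is 50% of the members, beside 49.2% of the 12322 genes tested, so the count itself was near the background, in which 25% of genes were called higher and 24.2% lower. In STAT3 siRNA cells 7 of 10 were called, the same 5 genes in the same directions and also PIAS1 and PIAS3, lower in OE33, beside 50.8% of all genes (25.6% higher and 25.2% lower). The groups did not overlap for 6 members in control cells and for 7 in siRNA cells, beside 55.3% and 61.5% of all genes. The median size of the difference was 0.61 over the members and 0.53 over all genes in control cells, and 0.71 and 0.55 in siRNA cells. In RNA from whole cultures, fewer cells expressing a gene and less of its RNA per cell cannot be told apart.

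**Figure D1:**
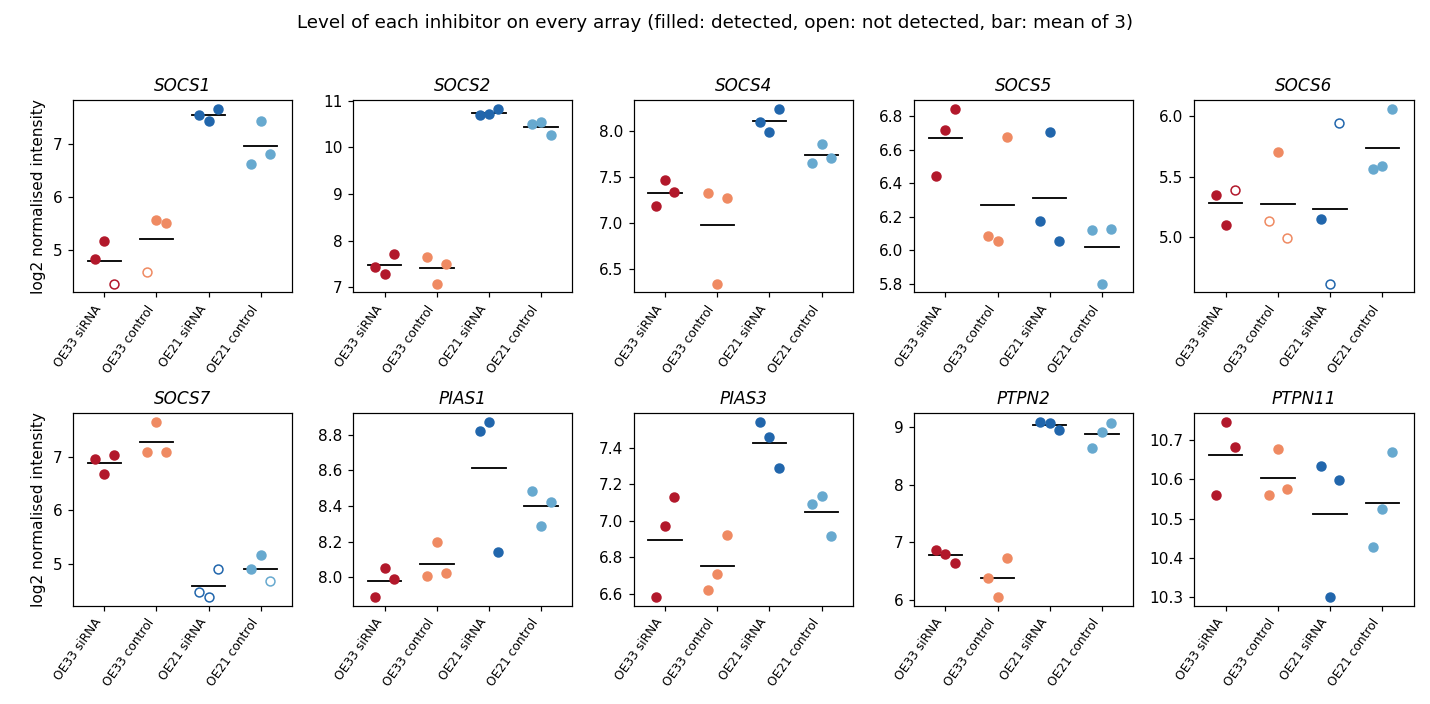
Log2 normalised intensity (y axis, a separate scale per gene) of each of the 10 inhibitors on every array, by group on the x axis, for the probe that stands for the gene. Each point is 1 array, filled where the probe was detected and open where it was not, and the bar is the mean of 3. SOCS1, SOCS2, SOCS4 and PTPN2 sit lower on all 6 OE33 arrays than on all 6 OE21 arrays, and SOCS7 sits higher.

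SOCS2, which restrains growth hormone receptor signalling, showed the largest difference of the 10. Its level was 7.43, 7.29 and 7.72 on the OE33 siRNA arrays and 10.69, 10.71 and 10.83 on the OE21 siRNA arrays. The control arrays read 7.65, 7.08 and 7.51 in OE33 and 10.51, 10.55 and 10.26 in OE21. The lowest OE21 array thus stood well above the highest OE33 array, under both treatments, and the probe was detected on all 12 arrays. SOCS2 was 9.64-fold lower in OE33 siRNA cells than in OE21 siRNA cells (log2 difference -3.27, SE 0.18, limma adjusted p = 2.36e-08) and 8.16-fold lower in OE33 control cells than in OE21 control cells (-3.03, SE 0.18, adjusted p = 5.17e-08). In control cells 4.29% of all genes differed by as much. A second SOCS2 probe gave -2.93 in control cells and -3.11 in siRNA cells, both called.

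SOCS1 binds JAK kinases directly, blocks their activity and is induced by interferons. It read 4.84, 5.18 and 4.37 on the OE33 siRNA arrays, against 7.55, 7.43 and 7.66 on the OE21 siRNA arrays. In control cells the levels were 4.58, 5.56 and 5.51 in OE33 and 6.62, 7.42 and 6.81 in OE21. The probe was detected on all 6 OE21 arrays but on 2 of 3 arrays in each OE33 group, so that its OE33 level lay close to background. The difference was -2.75 (SE 0.29) in siRNA cells, 6.72-fold lower in OE33, with an adjusted p of 1.01e-05. In control cells it was -1.73 (SE 0.29), 3.33-fold lower, with an adjusted p of 0.000429. Without background correction the difference was smaller, at -1.19 in siRNA cells and -0.71 in control cells, and it remained called.

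SOCS4 and SOCS5 form a related pair with long amino-terminal regions, and both have been linked to the turnover of the EGF receptor. SOCS4 read 7.18, 7.47 and 7.33 on the OE33 siRNA arrays and 8.10, 7.98 and 8.24 on the OE21 siRNA arrays. Its control levels were 7.32, 6.34 and 7.27 in OE33 and 7.65, 7.86 and 7.70 in OE21. All OE33 values lay below all OE21 values, and the lowest, 6.34, came from the OE33 control array that stood apart. SOCS4 was 1.72-fold lower in OE33 siRNA cells (-0.78, SE 0.23, adjusted p = 0.0134) and 1.69-fold lower in OE33 control cells (-0.76, SE 0.23, adjusted p = 0.0157). Without OE33 control replicate 2 the control difference was -0.44, still called (adjusted p = 0.0227). The call in control cells was lost without OE21 control replicate 2 (adjusted p = 0.0521) and in a fit of the 6 control arrays alone (adjusted p = 0.0527). A second SOCS4 probe gave -1.20 in siRNA cells (adjusted p = 0.0202) and -0.59 in control cells (adjusted p = 0.227). It was detected on 3 of the 12 arrays, all of them OE21 arrays, so it passed the detection filter through OE21 alone. Its line difference is therefore no separate support.

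SOCS5 did not pass the test between the lines. Its level was 6.44 to 6.85 on the OE33 siRNA arrays and 6.06 to 6.71 on the OE21 siRNA arrays, and 6.05 to 6.68 in OE33 control cells and 5.80 to 6.13 in OE21 control cells. The groups overlapped under both treatments. The difference was 0.36 (95% confidence interval -0.13 to 0.84) in siRNA cells and 0.26 (-0.22 to 0.74) in control cells. Its second detected probe had the opposite sign, at -0.26 and -0.42, and also did not pass, and its other 2 probes were detected on 0 arrays.

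SOCS6 and SOCS7, the other long-tailed pair, act on receptor tyrosine kinase and insulin receptor signalling. SOCS7 was the only one of the 10 that was called higher in OE33. Its level was 6.96, 6.67 and 7.04 on the OE33 siRNA arrays and 4.48, 4.38 and 4.90 on the OE21 siRNA arrays. The control arrays gave 7.08, 7.65 and 7.08 in OE33 and 4.90, 5.16 and 4.67 in OE21. The probe was detected on all 6 OE33 arrays, on 0 of 3 OE21 siRNA arrays and on 2 of 3 OE21 control arrays. In siRNA cells the group mean was therefore at least 4.79-fold higher in OE33 (limma adjusted p = 2.53e-06). The bound was computed against the lowest signal among detected probes on each array, or the probe's own signal where that was higher. It holds for this probe and after background correction only. In control cells the difference was 2.36 (SE 0.21), 5.14-fold, with an adjusted p of 2.23e-06. A second SOCS7 probe gave 1.37 in siRNA cells and 2.09 in control cells, both called. It was detected on all 6 OE33 arrays and on 1 OE21 control array. Both probes passed the detection filter through OE33, so the second probe's line difference is no separate support. Without background correction the first probe gave 0.85 in siRNA cells and 0.98 in control cells, both called.

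SOCS6 was near background in both lines, detected on 2 OE33 siRNA arrays, 1 OE33 control array, 1 OE21 siRNA array and 3 OE21 control arrays. Its level was 5.10 to 5.39 in OE33 siRNA cells and 4.62 to 5.94 in OE21 siRNA cells, and 4.99 to 5.70 in OE33 control cells and 5.57 to 6.06 in OE21 control cells. The difference did not pass in siRNA cells (0.04, 95% confidence interval -0.61 to 0.70) or in control cells (-0.46, -1.12 to 0.19), and intervals of this width do not show that the lines had the same level.

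PTPN2, a phosphatase of JAK1 and STAT3, showed the next largest difference after SOCS2 in control cells. The probe that stands for the gene read 6.87, 6.80 and 6.64 on the OE33 siRNA arrays and 9.09, 9.07 and 8.95 on the OE21 siRNA arrays. In control cells it read 6.38, 6.05 and 6.72 in OE33 and 8.64, 8.92 and 9.07 in OE21. It was detected on all 12 arrays, and the lines were far apart under both treatments. PTPN2 was 4.81-fold lower in OE33 siRNA cells (-2.27, SE 0.18, adjusted p = 7.50e-07) and 5.63-fold lower in OE33 control cells (-2.49, SE 0.18, adjusted p = 3.34e-07). The other 2 probes, annotated to another transcript of the gene, were also lower in OE33 and called, at -1.96 and -0.77 in control cells and -2.13 and -0.85 in siRNA cells. Without background correction the first probe gave -1.58 in siRNA cells and -1.64 in control cells, both called. The other 2 probes were detected on 9 and 5 of the 12 arrays. For the probe at -0.77 and -0.85 all 5 were OE21 arrays. It passed the detection filter through OE21 alone, so its line difference is no separate support.

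PTPN11 had the smallest line difference of the 10 in control cells. It read 10.56 to 10.75 in OE33 siRNA cells, 10.56 to 10.68 in OE33 control cells, 10.30 to 10.63 in OE21 siRNA cells and 10.43 to 10.67 in OE21 control cells. The line difference was 0.15 in siRNA cells (95% confidence interval -0.15 to 0.45) and 0.06 in control cells (-0.24 to 0.36). These are the narrowest intervals of the 10 genes in these comparisons, and 93.3% of all genes differed by at least as much in control cells.

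PIAS1, a SUMO ligase of the pathway, and PIAS3, which binds STAT3, were lower in OE33 in siRNA cells but did not pass in control cells. PIAS1 read 7.89, 8.05 and 7.99 in OE33 siRNA cells and 8.82, 8.87 and 8.14 in OE21 siRNA cells. In control cells it read 8.01, 8.20 and 8.02 in OE33 and 8.49, 8.29 and 8.42 in OE21. The groups did not overlap under either treatment, but 1 OE21 siRNA array, replicate 3, lay near the OE33 values. The difference was -0.63 (SE 0.18, adjusted p = 0.0133) in siRNA cells and -0.32 (SE 0.18, adjusted p = 0.173) in control cells. The siRNA call was lost without OE21 siRNA replicate 1 (adjusted p = 0.0589) and without OE21 siRNA replicate 2 (adjusted p = 0.0606).

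PIAS3 read 6.58, 6.97 and 7.13 in OE33 siRNA cells and 7.54, 7.46 and 7.29 in OE21 siRNA cells. Its control levels were 6.62, 6.71 and 6.92 in OE33 and 7.09, 7.14 and 6.92 in OE21, where the groups met at 6.92. The difference was -0.53 (SE 0.16, adjusted p = 0.0174) in siRNA cells and -0.30 (SE 0.16, adjusted p = 0.155) in control cells. The siRNA call was lost without OE33 siRNA replicate 1 (adjusted p = 0.0791) and without OE21 siRNA replicate 1 (adjusted p = 0.0646). For neither PIAS gene was the line difference shown to differ between siRNA and control cells, as the interaction test did not pass (limma adjusted p = 0.847 for PIAS1 and 0.868 for PIAS3).

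**Figure D2:**
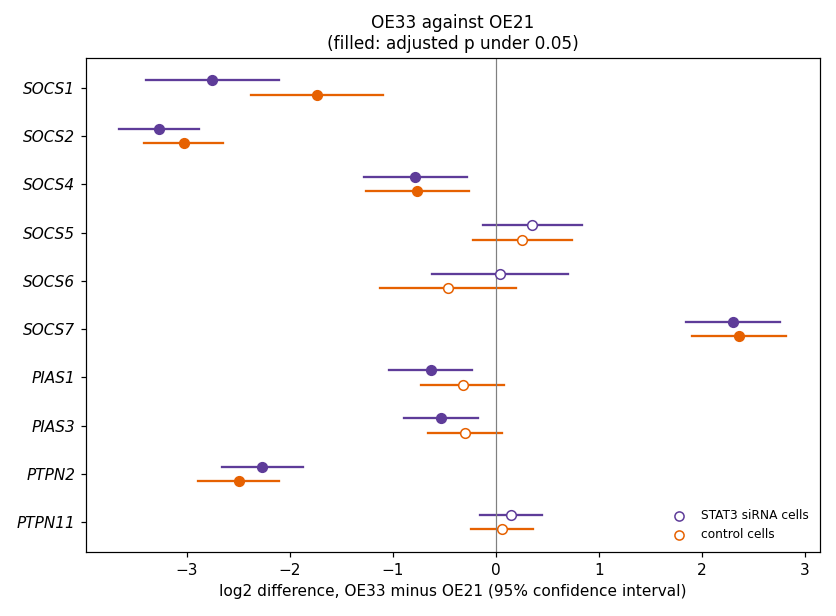
Log2 difference between the lines (x axis, OE33 minus OE21) for each of the 10 inhibitors (y axis), in STAT3 siRNA cells (purple) and in control cells (orange). Points are estimates from the 12-array fit, lines their 95% confidence intervals, and filled points had a limma adjusted p under 0.05. SOCS2, PTPN2 and SOCS1 lie farthest to the left and SOCS7 farthest to the right under both treatments.

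**Figure D3:**
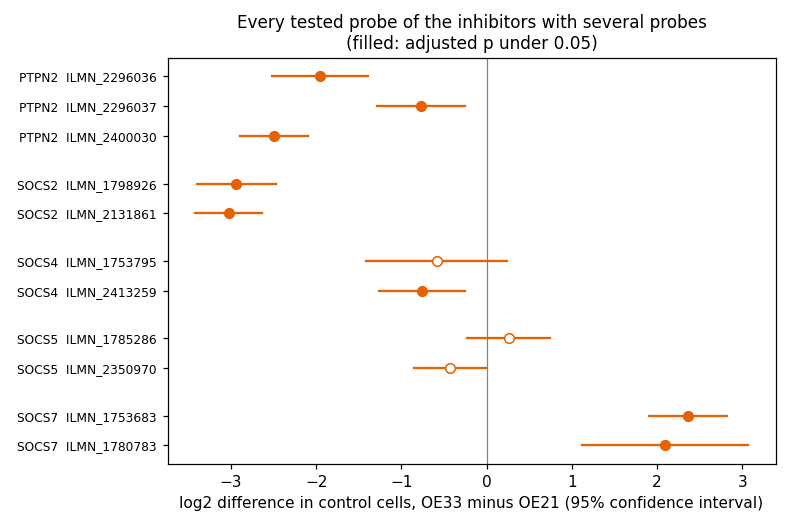
Log2 difference between OE33 and OE21 control cells (x axis) for each detected probe of the 5 inhibitors with several detected probes (y axis), with 95% confidence intervals and filled points for an adjusted p under 0.05, adjusted over all probes. The probes of SOCS2, SOCS4, SOCS7 and PTPN2 lie on 1 side of 0 within each gene, while the 2 probes of SOCS5 lie on opposite sides. For SOCS4 and for PTPN2, 1 of the probes was detected on OE21 arrays only. The second SOCS7 probe was detected on every OE33 array and on 1 OE21 array.

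The partners of the inhibitors were taken from lists of the machinery they work with, and their line differences are given in the same direction, OE33 over OE21. Of the 6 genes of the SOCS box ubiquitin ligase, 4 were called in control cells and 3 in siRNA cells, beside 49.2% and 50.8% of all genes. The adaptor ELOC (elongin C) was lower in OE33, at -0.75 in siRNA cells and -0.98 in control cells, while the scaffolds CUL5 (0.85 and 0.80) and CUL2 (0.81 and 0.52) were higher. ELOB (elongin B) was higher in control cells at 0.41. The members of this ligase thus differed in both directions between the lines.

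Of 14 genes of the SUMO cycle, in which the PIAS proteins act as ligases, 9 were tested, and 6 were called in control cells and 7 in siRNA cells, beside 49.2% and 50.8% of all genes. The modifier SUMO3 was lower in OE33 (-0.83 in siRNA cells, -0.95 in control cells), as were the ligase PIAS2 (-0.76 and -1.15), the proteases SENP5 (-0.61 and -0.68) and SENP7 (-1.01 and -1.14), and, in control cells, the activating enzyme subunit SAE1 (-0.44). PIAS4 was called in siRNA cells alone, at -0.67. The protease SENP6 was higher (0.82 and 0.65). The median over the 9 genes was -0.61 in siRNA cells and -0.57 in control cells, against 0.01 over all genes in each.

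Of 8 other inhibitors of the pathway 5 were tested, and 2 were called under each treatment, both lower in OE33, beside 49.2% of all genes in control cells and 50.8% in siRNA cells. USP18, an interferon-induced brake on the type I interferon receptor, was 9.31-fold lower in siRNA cells (-3.22, SE 0.17, adjusted p = 2.27e-08) and 4.78-fold lower in control cells (-2.26, SE 0.17, adjusted p = 5.68e-07). Without background correction USP18 gave -2.11 and -1.53, both called. The ubiquitin ligase CBLB was lower, at -2.15 in siRNA cells and -1.92 in control cells. SOCS3 lay outside the members and lists and was looked up after the values were seen, as the feedback inhibitor most often linked to STAT3. The probe with its higher mean was detected on 5 of 6 OE33 arrays and on 0 of 6 OE21 arrays. SOCS3 was 1.88-fold higher in OE33 siRNA cells (fitted difference 0.91, limma adjusted p = 0.0109). This fold is the estimate from the group means, without its sampling error, and not a lower bound. Its size holds after background correction only. Without that correction the fitted difference was 0.26, and with the authors' normalised values 0.28, both called. In control cells SOCS3 did not pass (0.65, limma adjusted p = 0.0533), and its second probe passed under neither treatment. In control cells the second probe went the other way, with a mean of 4.82 in OE33 and 4.99 in OE21.

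Among 9 adaptors and partners of PTPN11, 8 were tested, and 1 was called in control cells and 2 in siRNA cells, beside 49.2% and 50.8% of all genes. The docking protein GAB2, detected on all 6 OE33 arrays and 0 OE21 arrays, was at least 6.39-fold higher in OE33 siRNA cells and at least 7.91-fold higher in OE33 control cells (adjusted p of 1.37e-05 and 4.87e-06). GAB2 passed the detection filter through OE33 alone, so its line difference is a description only. The bounds compare group means without their sampling error and hold after background correction only. Without background correction the fitted GAB2 differences were 1.07 and 1.34, both called. IRS2, an insulin receptor substrate, was lower in OE33 siRNA cells at -1.12. PTPN11 itself did not differ beyond its error in either.

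Of 22 receptors and kinases that the SOCS and PTPN proteins act on, 17 were tested, and 6 were called in control cells and 8 in siRNA cells, below the 49.2% and 50.8% of all genes. EGFR, on which SOCS4 and SOCS5 act, was 10.1-fold lower in OE33 siRNA cells (-3.34) and 9.60-fold lower in OE33 control cells (-3.26). IFNGR1 and IFNGR2, the interferon gamma receptor chains, were higher, at 1.45 and 0.49 in siRNA cells and 1.72 and 0.78 in control cells. JAK1, a substrate of PTPN2, was also higher, at 0.93 and 0.97. The interleukin 22 receptor chain IL22RA1 was at least 2.55-fold lower in OE33 siRNA cells, where it was detected on 0 arrays, and 1.78-fold lower in OE33 control cells, where it was detected on 1 of 3 arrays. EPOR was higher in OE33 control cells at 0.87, and IGF1R was at least 2.62-fold lower in OE33 siRNA cells. IL22RA1 passed the detection filter through OE21, so its line difference is a description only. The bounds for IL22RA1 and IGF1R compare group means without their sampling error and hold after background correction only. Without background correction the fitted differences in siRNA cells were -0.43 for IL22RA1 and -0.49 for IGF1R, and -0.24 for IL22RA1 in control cells, all called. Of the 7 STATs, 5 were tested, with 1 called in control cells and 2 in siRNA cells, beside 49.2% and 50.8% of all genes. STAT6 was lower in OE33 (-0.65 in siRNA cells, -0.54 in control cells), and STAT3 was higher in siRNA cells (2.01), where the OE21 arrays read 6.76 to 7.47.

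No inhibitor passed the test between STAT3 siRNA and control cells in either line. In OE33, 0 of 10 members were called, beside 0% of 10634 genes, and 0 had an unadjusted p under 0.05, beside 2.75% of genes. The differences ran from -0.42 for SOCS1 to 0.40 for SOCS5, and the members' median was 0.06, against -0.01 over all genes. In OE21, 0 of 9 were called, beside 0% of 11179 genes, while 3 had an unadjusted p under 0.05, beside 11.3% of genes. There the differences ran from -0.50 for SOCS6 to 0.59 for SOCS1, with 7 of 9 above 0 and a median of 0.30, against -0.003 over all genes. SOCS7 was detected on too few OE21 arrays to be tested there.

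The 3 members at an unadjusted p under 0.05 in OE21 were SOCS1, PIAS3 and SOCS4, all higher in siRNA cells. SOCS1 averaged 7.55 ± 0.11 on siRNA arrays and 6.95 ± 0.42 on control arrays (SD, n = 3 each), a difference of 0.59 (95% confidence interval 0.06 to 1.12, limma adjusted p = 0.401). PIAS3 averaged 7.43 ± 0.13 and 7.05 ± 0.11, with a difference of 0.38 (0.05 to 0.70, limma adjusted p = 0.394). SOCS4 averaged 8.10 ± 0.13 and 7.74 ± 0.11, with a difference of 0.37 (0.05 to 0.69, limma adjusted p = 0.394). For these genes and for SOCS2 all 3 siRNA arrays lay above all 3 control arrays, which is 4 of 9 members, beside 16.9% of all genes. SOCS2 had a difference of 0.31 (95% confidence interval -0.02 to 0.63). The smallest margin was in SOCS1, where siRNA replicate 2 read 7.43 and control replicate 2 read 7.42.

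The other 5 genes tested in OE21 did not separate the groups. PIAS1 was high on siRNA replicates 1 and 2 (8.82 and 8.87) and low on siRNA replicate 3 (8.14), against 8.29 to 8.49 on the control arrays. SOCS6 ran the other way, at 5.15, 4.62 and 5.94 on the siRNA arrays, against 5.57, 5.59 and 6.06 on the control arrays. In both genes siRNA replicate 3 lay apart from siRNA replicates 1 and 2, as it did on the first principal component of the line. The part of that component in the siRNA differences was not tested. The differences of SOCS5 (0.30), PTPN2 (0.16) and PTPN11 (-0.03) had intervals that span 0.

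In OE33 the groups did not overlap for 1 of 10 members, SOCS7, beside 7.72% of all genes. SOCS7 averaged 6.89 ± 0.19 on siRNA arrays and 7.27 ± 0.33 on control arrays (SD, n = 3 each), a difference of -0.38 (95% confidence interval -0.85 to 0.09). Its highest value, 7.65, came from control replicate 2, the array that stood apart, and without it the SOCS7 difference was -0.19. PTPN2 averaged 6.77 ± 0.12 on siRNA arrays and 6.39 ± 0.33 on control arrays, a difference of 0.39 (-0.06 to 0.84). SOCS5 had 0.40 (-0.10 to 0.89) and SOCS4 0.35 (-0.28 to 0.98). All 3 intervals include 0, and their upper ends reach 0.84 to 0.98. Without control replicate 2 the difference was 0.031 for SOCS4, 0.22 for PTPN2, 0.29 for SOCS5 and -0.25 for SOCS1.

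**Figure D4:**
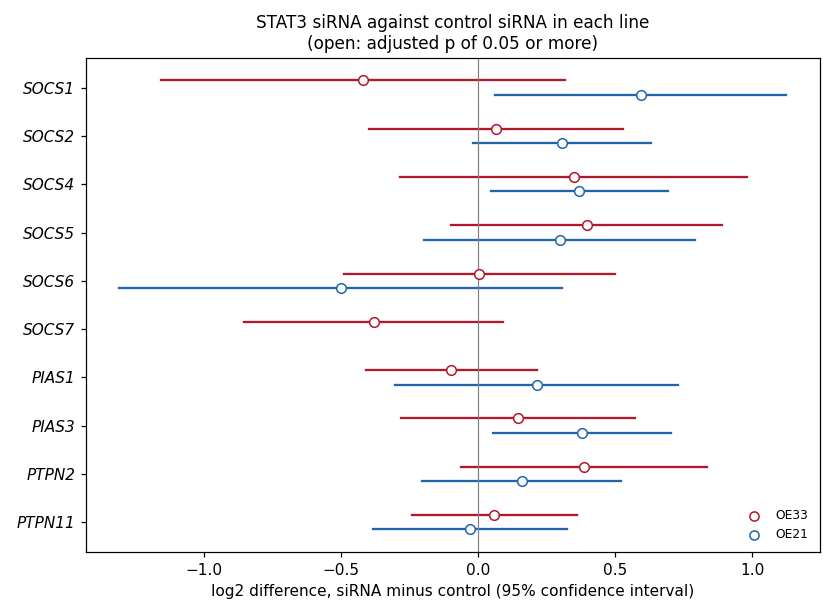
Log2 difference between STAT3 siRNA and control siRNA (x axis) for each inhibitor (y axis), in OE33 (red) and OE21 (blue), with 95% confidence intervals. All points are open, as no adjusted p was under 0.05. SOCS1 lies at 0.59 in OE21 and at -0.42 in OE33, and SOCS7 was not tested in OE21.

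The siRNA effects of the lines were compared directly as an interaction. Of the 10 members 0 were called, beside 0% of 12322 genes, and 1 had an unadjusted p under 0.05, beside 6.73% of genes. That gene was SOCS1: relative to control, siRNA arrays were lower by 0.42 on average in OE33 and higher by 0.59 in OE21, a difference of -1.01 (SE 0.42, 95% confidence interval -1.92 to -0.11), with an unadjusted p of 0.0317 and a limma adjusted p of 0.715. For PIAS1 the interaction was -0.31 (-0.88 to 0.26) and for PIAS3 -0.23 (-0.74 to 0.27). The remaining members lay between -0.24 and 0.51.

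The partner lists gave the same count of 0 called genes in both lines and in the interaction, with 0 to 3 genes of a list at an unadjusted p under 0.05 in OE21 and 0 to 1 in OE33 and in the interaction. In OE21 the 2 genes of smallest p in each list had differences of -0.47 for CUL2 and -0.29 for RBX1 in the SOCS box ligase, -0.31 for PIAS2 and 0.34 for PIAS4 in the SUMO cycle, and 0.38 for USP18 and 0.49 for CBL among other inhibitors. Among receptors they were 0.72 for IL22RA1 and 0.70 for IL10RB, the shared chain of the interleukin 10 and 22 receptors, among adaptors 0.32 for IRS2 and 0.16 for SOS1, and among STATs, after STAT3, -0.38 for STAT4. In OE33 the corresponding differences were -0.19 for CUL2 and 0.16 for CUL5, -0.19 for PIAS4 and 0.37 for SUMO2, -0.17 for PTPN1, -0.17 for GAB1 and -0.29 for SHC1, 0.33 for IL6ST and 0.18 for IFNAR2, and -0.35 for STAT5A. The interactions of smallest p in the lists ran from -0.96 for USP18 and -0.89 for IGF1R to 0.39 for PIAS2, with STAT3 at 1.58. In OE33 USP18 averaged 6.04 on siRNA arrays and 6.62 on control arrays, a difference of -0.58 (SE 0.14) with an unadjusted p of 0.00447 and an adjusted p of 0.991. Its interaction of -0.96 (SE 0.24) had an adjusted p of 0.574, so USP18, like SOCS1, read higher with siRNA in OE21 and lower with siRNA in OE33, without passing the test.

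Genes whose profile over the 12 arrays was most like that of SOCS2, PTPN2 and SOCS7, the members with the largest line differences in control cells, were found by the root mean square distance between profiles centred on their means, among 12321 other genes. For SOCS2 they were SERPINB5 (0.18), KCNMA1 (0.18) and LARP6 (0.21), against a median distance of 1.62 over all genes. For PTPN2 they were FADD (0.19), ANAPC15 (0.19) and HSBP1 (0.20), against a median of 1.26. For SOCS7 they were ANXA11 (0.19), MED24 (0.21) and DDX52 (0.21), against a median of 1.23. FADD and ANAPC15 both lie on chromosome 11, and MED24 and DDX52 both lie on chromosome 17, as SOCS7 does. The distances are descriptions over arrays that share cell lines, and no test was made.

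Position on the chromosome was followed for all 10 members, with a choice of neighbours made after the values were seen: the 5 tested genes on each side in the order of the RefSeq gene table (GRCh38.p14). The 10 genes around SOCS7 on chromosome 17 were all higher in OE33 control cells than in OE21 control cells, and 8 were called higher, beside 25% of all genes, and their median difference was 2.20, against 0.01 over all genes and 2.36 for SOCS7 itself. Among them DDX52 had 2.52, MRPL45 2.41, MLLT6, a chromatin reader subunit, 2.45, and PCGF2, a Polycomb protein, 2.00, while CISD3 had 0.20 and was not called. TBC1D3C, at 3.04, belongs to a family of near-identical copies, so its signal cannot be given to 1 gene. In siRNA cells the median of these 10 genes was 2.04.

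Around PTPN2 on chromosome 18, 9 of 10 neighbours were lower in OE33 control cells and 7 were called lower, beside 24.2% of all genes, with a median of -1.06 against -2.49 for PTPN2. The called ones included PRELID3A at -2.67, AFG3L2, a mitochondrial protease, at -1.52, and SEH1L, a nuclear pore protein, at -1.15. SOCS6, also on chromosome 18, had 10 of 10 neighbours below 0, with 5 called and a median of -1.18. Around SOCS2 on chromosome 12 the median was -0.48, with 4 neighbours called lower and 1 higher, so SOCS2 at -3.03 differed more than any of its 10 neighbours, which ran from -1.48 to 0.54. Around SOCS1 on chromosome 16 the median was 0.24, with SOCS1 at -1.73 below all 10 neighbours, which ran from -1.20 to 0.79. The other 5 members had medians between -0.44 and 0.77.

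**Figure D5:**
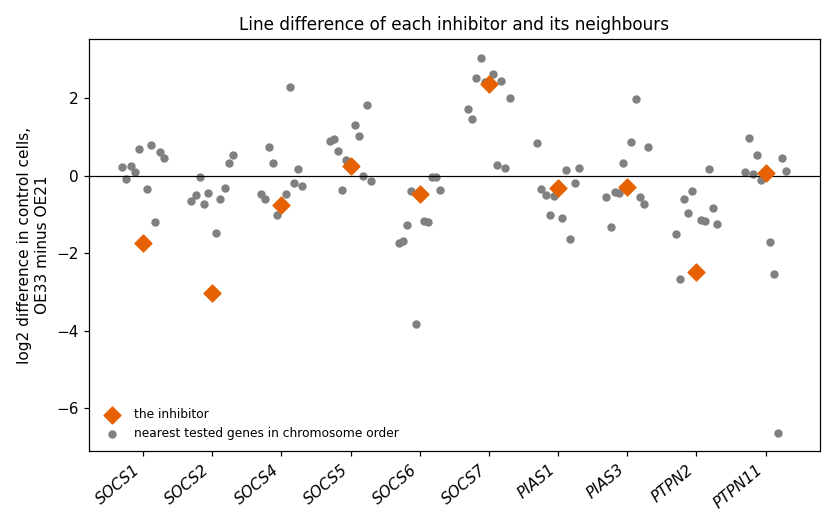
Log2 difference between OE33 and OE21 control cells (y axis) for each inhibitor (orange diamond, x axis) and for the 5 nearest tested genes on each side of it in chromosome order (grey points, left to right by order). SOCS7 lies within the range of its neighbours, all of which are above 0, while SOCS1 and SOCS2 lie below all of theirs.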

How the data were processed

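Per the labels' protocols, RNA was column-purified, checked on a Bioanalyser and labelled as biotinylated cRNA for Illumina arrays. The authors deposited a linear probe intensity per array, not normalised between arrays, and a detection p-value beside it. The sources used here do not say how this p-value was computed. The authors' normalised intensity values, made by a method the sources used here do not give, served as an alternative: each column followed its own array (Spearman correlation of at least 0.99996), on a linear scale with medians of 106.4 to 107.2.

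The intensities of all 12 arrays were corrected and normalised with neqc (limma 3.58.1, R 4.3.3, offset 16, background from the detection p-values). The table held 47323 probes, and the 4 that lacked a value on some array were dropped. Named probes with a detection p under 0.01 on at least 3 arrays of a fit entered it, and the probe of highest mean stood for its gene. The siRNA comparisons were fitted per line (4 residual degrees of freedom), the others on all 12 arrays (8), with lmFit and eBayes, two-sided, adjusted by Benjamini-Hochberg. The steps were tested on simulated data. The number of arrays limits the precision. All arrays carry 1 array identifier, so no slide batch was tested. An exact permutation test of 3 against 3 cannot go below p = 0.1. In OE33, deviations of siRNA and control arrays of the same number correlated at 0.10, 0.34 and 0.13. By comparison, siRNA replicate 1 with control replicate 3 correlated at 0.12, and siRNA replicate 3 with control replicate 1 at 0.20. The other arrays of different number correlated at -0.29 to -0.14. These values do not show that the numbers pair the arrays. The main fits used no block, and the replicate number was a block in an alternative only.

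The members and lists were chosen with earlier results of these data known. The genes named are all members, STAT3, up to 6 called genes per list and comparison by smallest p (otherwise the 2 of smallest p), and the 3 nearest profiles of 3 members. SOCS3 and the neighbours fall outside that rule.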

Additional observations from a re-analysis of the deposited data

Results flagged for a closer look

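SOCS1 had siRNA effects of opposite direction in the 2 lines: all 3 siRNA arrays lay below the control mean in OE33 and all 3 above it in OE21, a difference between the effects of -1.01 on the log2 scale. The test of this difference did not pass (limma adjusted p = 0.715), and over the alternatives the difference ran from -1.33 to -0.47 with adjusted p of 0.151 to 0.998. SOCS1 was detected on 2 of 3 arrays in each OE33 group. The OE33 groups overlapped, as control replicate 1, at 4.58, lay below siRNA replicates 1 and 2, at 4.84 and 5.18.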

How the results depend on the processing

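The called line differences of SOCS1, SOCS2, SOCS7 and PTPN2 kept their direction and their call under every alternative that could test them, and so did SOCS4 in siRNA cells. Counts changed as follows. Genes called between siRNA and control in OE21 numbered 270 with array weights, 1 with every probe on its own and 12 in one fit of all 12 arrays, and genes called in the interaction numbered 229 with array weights, with 0 members among any of them. Between the lines in control cells, 3 members were called among genes detected on every array, where SOCS1 and SOCS7 were no longer tested. Between the lines in control cells, array weights added calls for SOCS6 (adjusted p = 0.0124) and PIAS1 (adjusted p = 0.0385), and the lost calls of SOCS4, PIAS1 and PIAS3 stand beside their values above. The values that changed sign had not passed the test. Without background correction SOCS6 read -0.0041 for siRNA in OE33 and -0.0024 between the lines in siRNA cells, and with the authors' normalised values -0.0022 and -0.0017. Array weights gave -0.028 for SOCS2, -0.026 for IFNAR2 and 0.0091 for STAT5A for siRNA in OE33, -0.0024 for SOS1 in OE21, and interactions of -0.11 for SOCS5 and 0.23 for SOCS7. The mean of all probes gave -0.084 for SOCS5 between control cells and interactions of -0.0058 for PTPN2 and 0.34 for SHC1. The cause of these changes was not tested.

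Leaving out 1 array at a time gave ranges that reached the other side of 0 for these values. In OE21 siRNA differences ran from -0.091 to 0.076 for PTPN11 and from -0.12 to 0.51 for SOS1. In OE33 they ran from -0.10 to 0.19 for SOCS2, -0.14 to -0.050 for SOCS6 where it could be tested, -0.015 to 0.59 for SOCS3, -0.012 to 0.30 for CUL5, -0.017 to 0.59 for SUMO2, -0.50 to 0.041 for SHC1, -0.023 to 0.55 for IL6ST and -0.57 to 0.035 for STAT5A. Between the lines in siRNA cells SOCS6 ran from -0.27 to 0.40. Interactions ran from -0.34 to 0.15 for SOCS4, -0.029 to 0.30 for SOCS5, -0.19 to 0.13 for SOCS7, -0.017 to 0.15 for PTPN11, -0.048 to 0.55 for SOCS3 and -0.50 to 0.034 for SHC1. Members called between the lines numbered 5 to 7 in siRNA cells and 4 to 5 in control cells.

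With the replicate number as a block, 0 members and 0 genes were called in each siRNA comparison and in the interaction. The SOCS1 interaction was -1.01 with an adjusted p of 0.527. Same-numbered arrays of OE21 correlated at 0.45, -0.40 and 0.50, so their numbers were not taken as pairs. The block was not run between lines, since a number does not join arrays of different lines. Each fit had 3 arrays a group, which limits what could be detected.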
